A study of Mus musculus with 8 samples.

Results

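The vomeronasal receptor genes were examined on arrays of olfactory mucosa as 163 genes, 117 of the Vmn1r family and 46 of the Vmn2r family, out of 19938 genes measured. They were defined by gene name, with earlier results of these data known. A member had a transcript cluster, the set of probes that the array combines into 1 value, whose annotation named that gene and no other. Where a gene had several such clusters (7 members), the brightest was used. All 163 symbols were found in the RefSeq gene table. A further 66 clusters listed a vomeronasal receptor among 2 to 19 gene symbols and were described apart, since their signal belongs to no single gene.

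The RNA of 8 mice, each on its own array, was taken at postnatal day 1, all on a mixed 129 x C57BL/6J background. The 4 knockouts were OmpCre:Emx2 fl/fl, in which Cre recombinase made from the Omp locus can delete both floxed copies of Emx2, a homeodomain transcription factor gene, in cells that make Omp. Among the controls, the first 3 had the genotype OmpCre:Emx2 fl/+, while the fourth lacked Cre and was Emx2 fl/fl, so all 8 mice carried at least 1 floxed copy and 7 carried Cre. Controls were littermates, but the labels tie no mouse to a litter. Values are log2 signals, and differences are knockout minus control on the log2 scale with 4 mice in each group. Emx2 mRNA was lower in every knockout (10.14 to 10.34) than in any control (10.58 to 10.89). Array medians over all clusters ran from 8.64 to 8.68, and control 2 had raised immune cell markers (mean of 9 genes 10.58, against 9.09 to 9.25 on the other arrays).

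Vomeronasal receptors are G-protein-coupled receptors of the vomeronasal organ, a tubular sense organ in the nasal septum that detects pheromones and other social chemicals. V1Rs (the Vmn1r genes) are made by apical sensory neurons that use the G-protein subunit Gnai2, and V2Rs (Vmn2r), with their long extracellular domains, by basal neurons that use Gnao1. Odorant receptors (ORs, the Olfr genes) serve the olfactory epithelium in the same way. Omp is made in mature vomeronasal sensory neurons as well as in mature olfactory sensory neurons (OSNs), so the Cre used here can act in both. Whether the vomeronasal organ was part of the dissected tissue is not stated in the sources used here.

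Most vomeronasal receptors were dim. A dim level was set at 7.84, the 95th percentile of the mean signals of 44 reference genes known from pancreas, liver, germ cells, retina, kidney, mammary gland, gut and pituitary. Probes differ in how strongly they bind, so this level describes what a cluster can read with little transcript and is no measure of abundance. Member means ran from 3.51 to 8.11 with a median of 5.75, and 147 of 163 lay below the reference median of 6.96. Only 2 members (1.23%) exceeded the dim level in the mean over the 8 arrays, Vmn1r89 and, by a very small margin, Vmn1r86 (7.839 against 7.835). Of the OR genes measured in the same way 618 of 1015 (60.9%) exceeded it, as did 7 of the 13 trace amine-associated receptor (Taar) genes, a second receptor family of OSNs, and 73.6% of all clusters. No member reached the median of all clusters, 9.17.

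Vmn1r89, a V1R known to respond to sulfated steroids, had the highest mean, 8.11. Its signals were 9.69, 7.49, 7.57 and 7.22 in controls 1 to 4 and 9.04, 7.76, 7.14 and 8.97 in knockouts 1 to 4. Control 1, knockout 1 and knockout 4 were high, the other 5 arrays were below the dim level, and the groups overlapped. Vmn1r86, a neighbouring V1R gene, had a mean of 7.84, with 8.87, 7.08, 7.57 and 6.996 in controls and 8.60, 7.93, 7.35 and 8.32 in knockouts. The same 3 arrays were its highest. Measured against the dim level of each array by itself (7.72 to 7.98), 16 members, 10 Vmn1r and 6 Vmn2r, were above it on at least 1 array and 0 were above it on all 8. They were above it mostly on the same arrays: 12 members were above the level on control 1, 10 on knockout 1 and 8 on knockout 4, but 0 on controls 2 and 4 and on knockout 3, and 1 each on control 3 and knockout 2.

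Members just under the dim level differed in how steady they were. Vmn1r208, a V1R with a mean of 7.77, read 8.25, 7.34, 7.45 and 6.95 in controls and 8.57, 7.81, 7.35 and 8.46 in knockouts, a 3.07-fold range with the same 3 arrays highest. Vmn2r26, which encodes the V2R known as V2r1b, a receptor for peptides, also had a mean of 7.77 but signals of 7.87, 7.59, 7.68 and 7.54 in controls and 7.84, 7.83, 7.76 and 8.03 in knockouts. All 8 arrays lay within 0.50 of each other. Vmn2r54 was above the level of the array on control 3 alone, where it read 8.24, against 7.40 to 7.69 elsewhere.

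The vomeronasal receptors rose and fell together from array to array, and this pattern crossed the genotypes. The median over the 163 members was 6.15, 5.49, 5.61 and 5.47 in controls 1 to 4 and 6.04, 5.68, 5.50 and 5.97 in knockouts 1 to 4. Relative to each gene's own mean over the 8 arrays, the median member stood at 0.28 in control 1, 0.26 in knockout 1 and 0.22 in knockout 4. It stood at -0.20, -0.12 and -0.23 in controls 2 to 4, at -0.02 in knockout 2 and at -0.23 in knockout 3. In control 1, 146 members (89.6%) were above their own mean, as were 142 in knockout 1 and 141 in knockout 4, against 8 in control 2 and 11 in knockout 3. Both families showed it: control 1 stood at 0.26 for Vmn1r and 0.34 for Vmn2r, and knockout 3 at -0.23 and -0.21. In whole tissue, fewer cells of a type and less RNA per cell cannot be told apart.

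**Figure D1:**
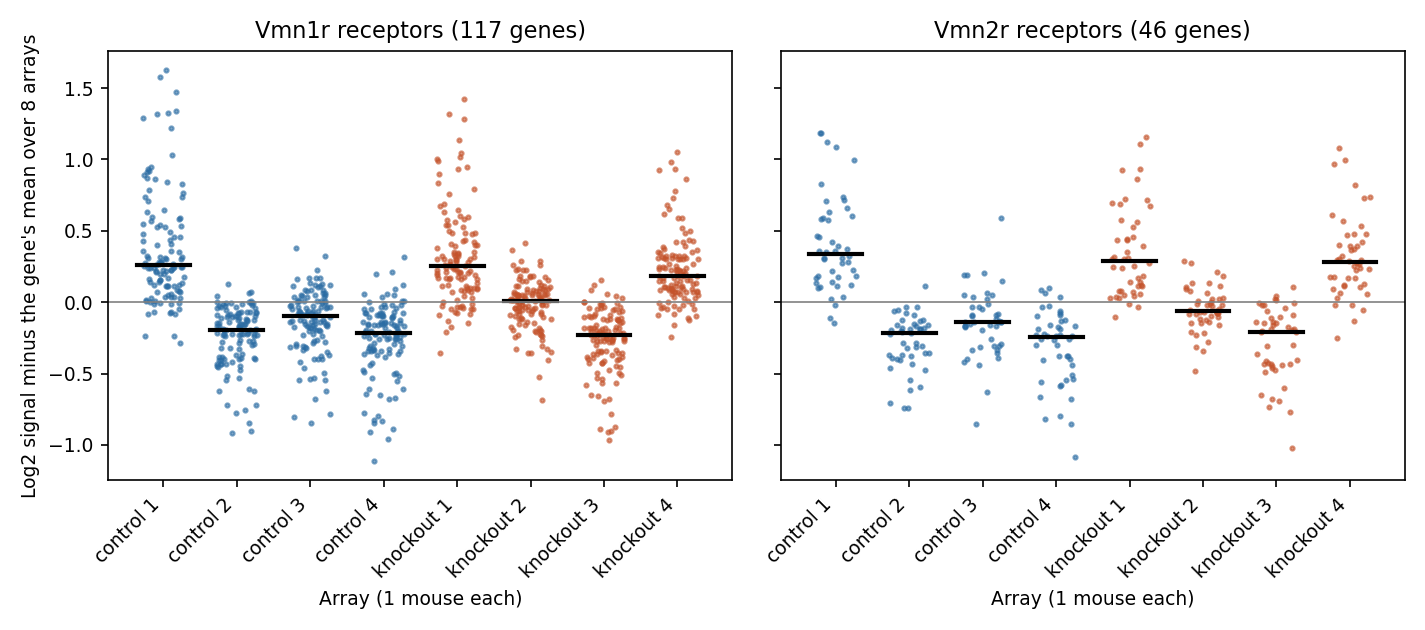
Log2 signal minus the gene's own mean over 8 arrays (vertical axis) for each Vmn1r gene (left, 117) and each Vmn2r gene (right, 46) on each array, with controls in blue, knockouts in orange and black bars for medians. In both families control 1, knockout 1 and knockout 4 lie above 0 for most genes, and controls 2 and 4 and knockout 3 below it.

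Control 1, knockout 1 and knockout 4 were the 3 highest arrays for 95 of the 163 members (58.3%), 67 of 117 Vmn1r and 28 of 46 Vmn2r. Over all 21789 clusters the same 3 arrays were highest in 421 (1.93%), and among the 1015 ORs in 1. The highest single array was control 1 for 66 members, knockout 1 for 49, knockout 4 for 24 and knockout 2 for 12, which left 9 for control 3, 2 for control 4, 1 for knockout 3 and 0 for control 2. Close relatives among these genes have similar sequences and can bind each other's probes, so members are not independent measurements. These counts describe the 8 arrays and were given no test.

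**Figure D2:**
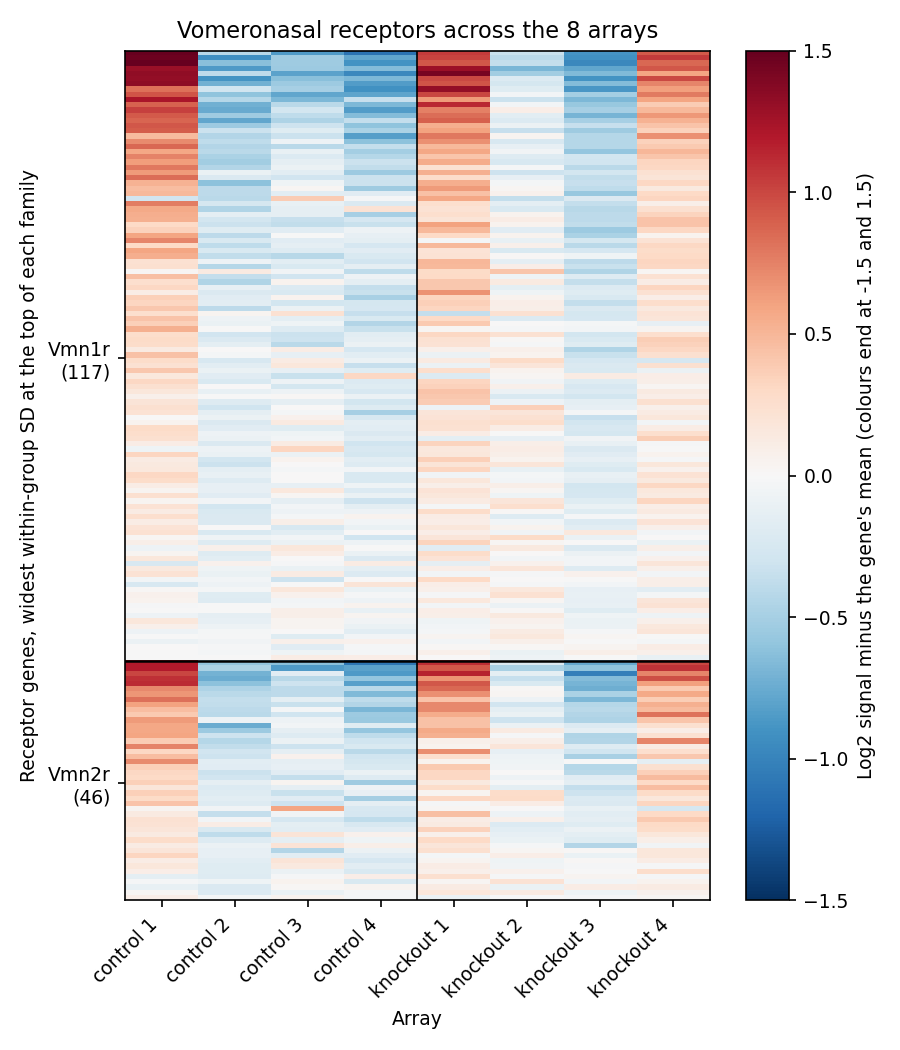
Heat map of log2 signal minus the gene's mean over 8 arrays for the 163 vomeronasal receptors (rows, Vmn1r above and Vmn2r below, widest spread on top in each) and the 8 arrays (columns), with colours that end at -1.5 and 1.5. Red columns at control 1, knockout 1 and knockout 4 run through both families and fade toward the members of small spread.

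Spread within the groups was wide for these dim clusters. The SD within groups, pooled over controls and knockouts, had a median of 0.271 over the members (0.258 for Vmn1r, 0.299 for Vmn2r). The control group holds both control genotypes. For 3660 other clusters of like signal (4.15 to 7.29) it was 0.123, for ORs 0.194, for Taar genes 0.210 and for all clusters 0.0967. The clusters of like signal were matched by this range only, and their median signal, 6.57, was above the 5.75 of the members. Among members, 93 (57.1%) exceeded the 90th percentile of the clusters of like signal, an SD of 0.240. The median member differed by 0.760 between its lowest and highest array, a 1.69-fold range, and 52 members (31.9%) by more than 1, against 4.62% of clusters of like signal and 3.58% of all clusters.

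**Figure D3:**
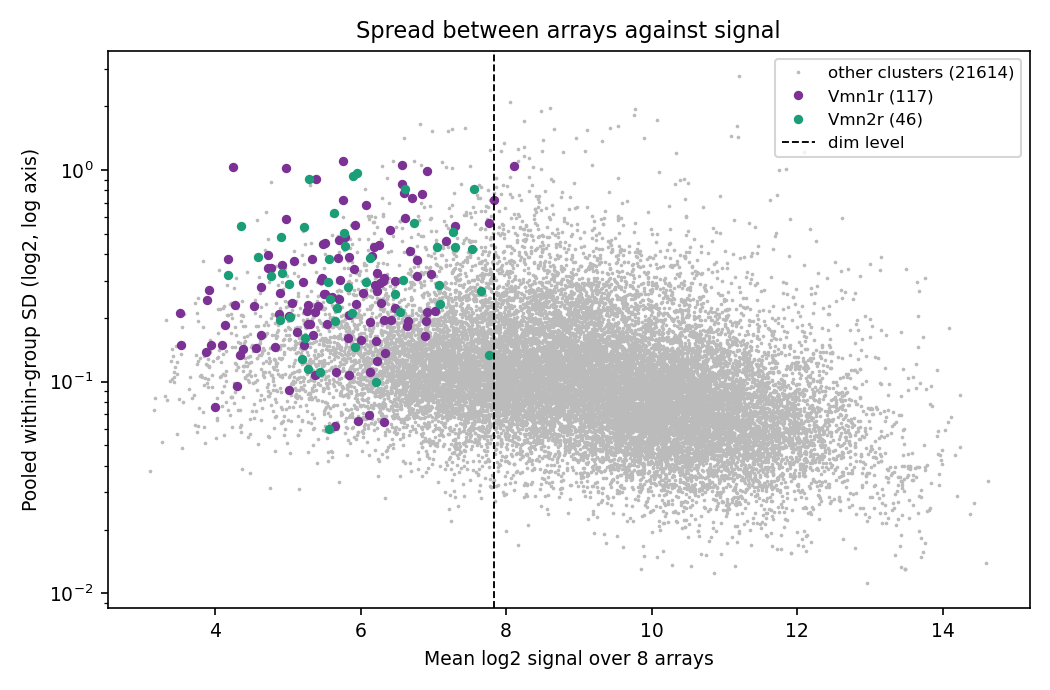
Pooled within-group SD (log2, on a log axis) against mean log2 signal over 8 arrays for Vmn1r (purple) and Vmn2r (green) genes and for the other tested clusters (grey), with the dim level of 7.84 dashed. Most receptors lie left of the line and above the bulk of grey points at the same signal.

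Vmn1r28 had the widest spread, an SD of 1.11. It read 7.39, 5.34, 4.91 and 4.65 in controls and 6.81, 5.43, 4.87 and 6.69 in knockouts, a 6.67-fold range. Control 1, knockout 1 and knockout 4 were each more than 1 above the remaining 5 arrays, and the genotypes overlapped. Its neighbour Vmn1r27 read 8.05, 5.66, 6.05 and 5.80 in controls and 7.59, 6.17, 5.67 and 7.63 in knockouts. Vmn1r33 read 6.30, 4.58, 4.17 and 4.01 in controls and 6.39, 4.45, 4.32 and 5.56 in knockouts. Vmn1r35, in the same group of neighbouring genes as Vmn1r33, read 5.55, 3.41, 3.71 and 3.61 in controls and 5.54, 3.57, 3.47 and 5.19 in knockouts. All 4 of these V1Rs had the same 3 arrays on top, and for each the gap between those arrays and the rest was larger than any gap among the rest.

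Vmn2r1 was the only receptor of V2R family C (Vmn2r1 to Vmn2r7) with a cluster of its own. Family C receptors differ from other V2Rs in being made by most basal neurons, beside the specific receptor of the cell. Vmn2r1 read 8.65, 6.82, 7.14 and 6.97 in controls and 8.23, 7.21, 6.91 and 8.53 in knockouts, a 3.56-fold range. The 3 high arrays were again control 1, knockout 1 and knockout 4, and they alone exceeded the dim level. A cluster shared by Vmn2r1 to Vmn2r5 and a pseudogene read 7.28 to 8.13 in controls and 7.71 to 8.09 in knockouts. A second shared cluster, of Vmn2r2, Vmn2r5 and the pseudogene, read 6.64, 6.40, 6.13 and 6.05 in controls and 6.60, 6.37, 6.61 and 6.67 in knockouts, with knockout 3 as high as knockout 1.

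Of the 52 members with a range over 1, 49 had those 3 arrays as their highest. The exceptions were Vmn2r9, Vmn2r14 and Vmn2r99. The highest array was control 1 for 34 of the 52, knockout 1 for 16 and knockout 4 for 2. A range over 2 was found for 11 members, 8 of them Vmn1r. At the other end, 9 members had a range under 0.3, 8 Vmn1r genes (Vmn1r1, Vmn1r4, Vmn1r15, Vmn1r53, Vmn1r56, Vmn1r70, Vmn1r212 and Vmn1r234) and Vmn2r27. The smallest was that of Vmn1r1, 0.166, with signals between 6.03 and 6.19.

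Groups of neighbouring receptor genes differed in spread. Genes less than 1000000 bases apart were put in one group, which gave 22 groups. The widest among those of 5 or more was Vmn1r32 to Vmn1r38 (5 genes), with a median SD of 0.778 and median deviations of 0.95 in control 1, 1.01 in knockout 1 and 0.59 in knockout 4. The 9 genes from Vmn1r170 to Vmn1r183 had a median SD of 0.161 and stood within 0.11 of their means on every array in the median. The 5 genes from Vmn2r19 to Vmn2r27 had 0.134. The 3 large groups of Vmn1r188 to Vmn1r222 (27 genes), Vmn2r52 to Vmn1r89 (23) and Vmn1r4 to Vmn1r30 (22) had 0.233, 0.252 and 0.262, and that of Vmn2r90 to Vmn1r237 (23), which holds both families, had 0.388.

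The 66 clusters shared by several genes carried the same pattern at higher signal. Their median deviation was 0.69 in control 1, 0.55 in knockout 1 and 0.45 in knockout 4, and -0.44, -0.29 and -0.59 in controls 2 to 4, 0.14 in knockout 2 and -0.44 in knockout 3. Control 1, knockout 1 and knockout 4 were the highest arrays in 44 of them (66.7%). Some of these clusters had identical values on all 8 arrays and many listed nearly the same genes, so the 66 clusters are not separate measurements. Their median range was 1.33, the largest 4.04 (16.4-fold, on a cluster with 4 symbols), and 22 of 66 (33.3%) exceeded the dim level. These clusters hold 81 further receptor symbols that had no cluster of their own.

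Promoters were compared because so many members moved together. RefSeq windows (assembly GRCm38.p6) were matched to 146 members, and the 250 bases before the annotated start were searched. For 81 of the 103 Vmn1r members with a window the RefSeq length was a multiple of 3 bases, as for models that hold only the coding sequence, so the annotated start can be the start codon and not the transcription start. TAATTA, a core bound by many homeodomain proteins and the same on both strands, was present in 15 members (10.27%), against 18.1% of OR windows and 4.84% of all RefSeq windows. Members' windows were rich in A and T (median 63.6%, against 66% in OR windows and 47.6% in all windows). The part of this composition in the motif's share was not tested. Holders of TAATTA had a median SD of 0.342 and a median difference of 0.12 between genotypes, and the other 131 had 0.262 and 0.13. The windows of 3 members are shown from 5′ to 3′, for the member of widest spread, for the family C receptor and for the brightest member with TAATTA, which is in capitals and starts 123 bases before the annotated start. They lie at chr6:58264924-58265173 (plus strand), chr3:64081392-64081641 (plus strand) and chr5:108852511-108852760 (minus strand).
Vmn1r28: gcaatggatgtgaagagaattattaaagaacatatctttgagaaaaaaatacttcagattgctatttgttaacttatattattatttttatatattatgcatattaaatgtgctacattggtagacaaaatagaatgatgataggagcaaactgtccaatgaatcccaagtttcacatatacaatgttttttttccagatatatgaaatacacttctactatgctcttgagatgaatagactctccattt
Vmn2r1: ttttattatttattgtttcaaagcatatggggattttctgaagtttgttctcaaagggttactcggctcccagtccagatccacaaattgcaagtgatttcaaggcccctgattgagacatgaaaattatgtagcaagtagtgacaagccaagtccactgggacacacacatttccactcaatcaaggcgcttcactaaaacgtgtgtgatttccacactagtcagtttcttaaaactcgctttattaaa
Vmn2r9: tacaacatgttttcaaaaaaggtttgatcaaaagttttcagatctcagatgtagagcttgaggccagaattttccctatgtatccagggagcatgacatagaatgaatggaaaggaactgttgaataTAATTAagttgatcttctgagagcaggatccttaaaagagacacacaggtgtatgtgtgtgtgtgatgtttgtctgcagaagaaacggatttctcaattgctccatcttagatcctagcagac

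Some genes outside the receptor families moved over the same arrays, and their part in the receptor pattern was not tested. Calr4, a calreticulin relative known from vomeronasal neurons, read 9.52, 7.98, 7.75 and 7.82 in controls and 8.91, 7.80, 7.66 and 9.12 in knockouts, high on the same 3 arrays. Gh, the growth hormone gene of the pituitary, read 10.82, 8.37, 8.85 and 8.63 in controls and 11.26, 8.01, 8.06 and 11.46 in knockouts. It was the highest of the reference genes and was high on the same 3 arrays too, as was Cga, the common subunit of pituitary glycoprotein hormones (8.19, 6.34, 7.04 and 6.88 in controls and 7.63, 6.98, 6.80 and 7.86 in knockouts). Of 9 pituitary genes listed, 7 were measured and 3 exceeded the dim level. Their summed signal, as log2, ran from 10.59 to 11.76 in controls and from 10.53 to 12.05 in knockouts. Prl, prolactin, was high on control 1 alone (8.14, against 5.92 to 6.14), and Tshb, Fshb, Pomc and Lhb varied by at most 0.35. Within that small range Pomc too was highest on the same 3 arrays (8.10 to 8.22, against 7.87 to 8.06), while Tshb, Fshb and Lhb were not. Without the pituitary genes among the reference genes the dim level was 7.82, and the same number of members, 2, exceeded it.

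Markers of sex moved with part of the pattern. Sex is not in the labels. The mean of 3 Y-linked genes was 8.09, 10.63, 10.53 and 10.57 in controls 1 to 4 and 7.05, 7.27, 10.72 and 7.51 in knockouts 1 to 4. Xist, the RNA of the inactive X chromosome, read 13.47, 8.08, 10.304 and 10.35 in controls and 13.41, 13.52, 6.997 and 13.48 in knockouts. The 3 arrays of high receptor signal had low Y-linked and high Xist signal, and so had knockout 2, on which the receptors stood at -0.02. The part of sex in the pattern was not tested. Low Y-linked signal was uneven between the genotypes, on 1 control and 3 knockouts.

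**Figure D4:**
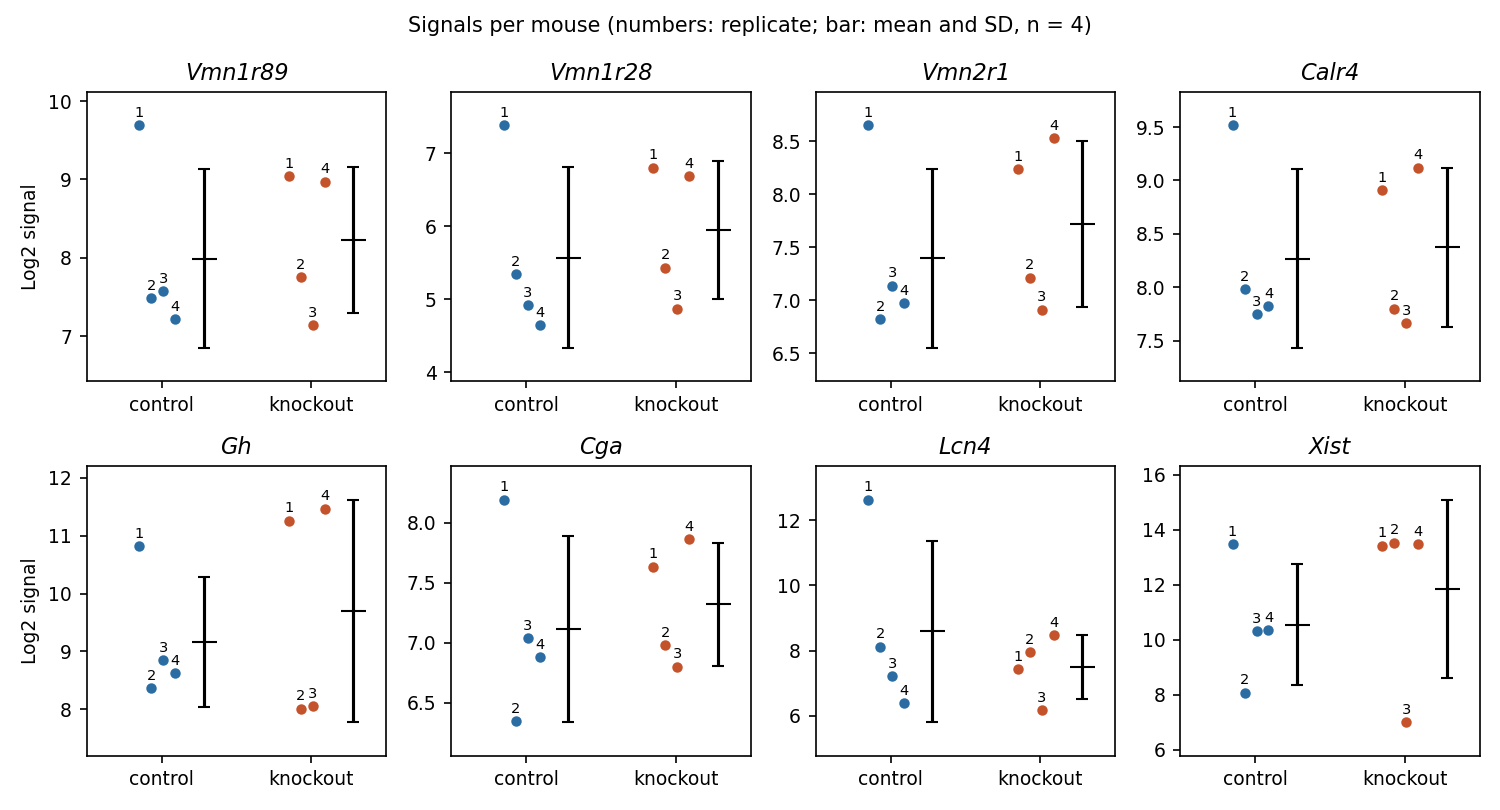
Log2 signal on each array (points numbered by replicate, controls blue, knockouts orange, bars for mean and SD with n = 4) of 3 vomeronasal receptors and of Calr4, Gh, Cga, Lcn4 and Xist. The receptors, Calr4, Gh and Cga are high in control 1, knockout 1 and knockout 4, Lcn4 in control 1 alone (12.64), and Xist also in knockout 2.

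Other genes of the vomeronasal system did not share one pattern. Of 6 genes of vomeronasal signal transduction 5 were measured, all above the dim level (the subunits Gnai2, Gnao1 and Gng8 and the chloride channels Ano1 and Ano2). Their summed signal, as log2, varied from 14.13 to 14.20 in controls and from 14.14 to 14.16 in knockouts. OSNs and other cells also make these proteins. The sixth, the channel gene Trpc2, shares its cluster with other symbols and was not analysed alone. The transcription factors Meis2, Tfap2e and Bcl11b were above the dim level, with Tfap2e, a factor of basal vomeronasal neurons, between 8.01 and 8.14 on all arrays. Of the 10 partners of V2Rs, the H2-Mv genes and B2m, only B2m (12.44) and H2-M10.2 (7.88) had means above the dim level. None of the 4 formyl peptide receptors measured (Fpr-rs3, Fpr-rs4, Fpr-rs6 and Fpr-rs7) exceeded it. Their mean was 5.79, 5.64, 5.62 and 5.61 in controls 1 to 4 and 5.725, 5.735, 5.46 and 5.71 in knockouts 1 to 4. Of 7 genes listed for glands of the vomeronasal organ and nose, 4 were measured. Lcn4, a lipocalin secreted there, read 12.64, 8.12, 7.22 and 6.38 in controls and 7.42, 7.96, 6.18 and 8.47 in knockouts. Lcn3 was also highest in control 1 (11.65, against 7.20 to 9.35). The gland genes Bpifb9a and Bpifb9b read 13.34 to 14.34 on every array, and both were highest on control 1, knockout 1 and knockout 4. On those 3 arrays Bpifb9a read 14.17, 14.16 and 13.87 (13.34 to 13.75 elsewhere). Bpifb9b read 14.34, 14.23 and 14.17 there (13.81 to 14.13 elsewhere).

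Knockouts and controls differ in whether Emx2 can be lost in cells that make Omp, and the comparison asks which mRNAs change with it. Of the 163 members, 140 were higher in the mean of knockouts and 23 lower (85.9% higher, against 51.3% of all clusters). The median difference was 0.12 (1.09-fold), against 0.00 over all clusters, with 0.12 over Vmn1r (99 higher, 18 lower) and 0.15 over Vmn2r (41 higher, 5 lower). Member differences ran from -0.17 to 0.62. Between arrays of a group, the median over the members had an SD of 0.288 (pooled over controls and knockouts), wider than the median difference. This SD is the spread of single arrays and not the error of a difference between group means. No member passed limma's test after Benjamini-Hochberg adjustment over 21789 clusters, where 0 clusters (0%) passed, and the smallest adjusted p of a member was 0.910. At an unadjusted limma p under 0.05, 2 members were higher (2.62% of all clusters were) and 0 lower (2.55% of all clusters were), counts no larger than this background gives for 163 genes. All knockouts were above all controls for 1 member, Vmn1r70 (1.62% of all clusters), and below them for 0 (1.48%).

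**Figure D5:**
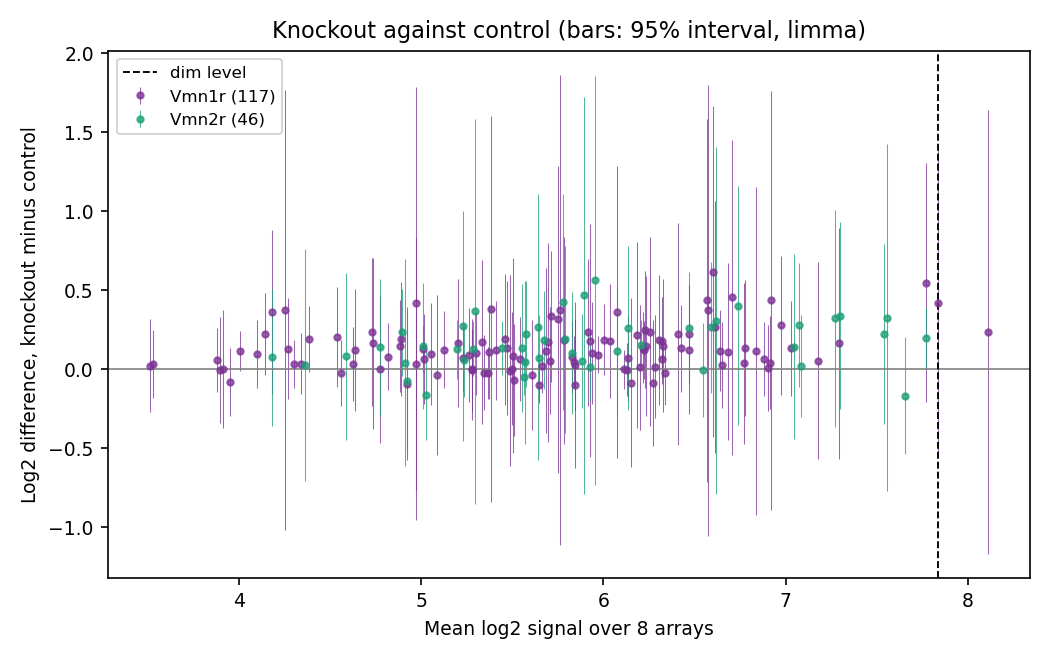
Log2 difference of knockout minus control (points, with 95% intervals from limma) against mean log2 signal over 8 arrays for Vmn1r (purple) and Vmn2r (green) genes, with the dim level dashed. Most points lie just above 0, and all intervals but 2 span 0.

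The members with the smallest p values differed little. Vmn2r26 was 0.20 ± 0.09 (SE) higher (limma adjusted p = 0.910), and Vmn2r56 0.16 ± 0.07 higher (limma adjusted p = 0.910), with 6.01 to 6.23 in controls and 6.15 to 6.38 in knockouts. Next in that direction were Vmn1r205, Vmn1r66, Vmn1r67 and Vmn1r201, at 0.12 to 0.22, and none of these 6 exceeded the dim level in the mean. With Y-linked signal in the model Vmn2r26 was at 0.09 and Vmn2r56 at 0.05. In the other direction the smallest p was that of Vmn1r53, at -0.10 ± 0.05 (limma adjusted p = 0.910), with 5.63 to 5.76 in controls and 5.53 to 5.65 in knockouts. It was followed by Vmn2r24, Vmn2r54, Vmn2r27, Vmn1r172 and Vmn1r48, at -0.05 to -0.17. Vmn1r70, whose groups did not overlap, read 5.80 to 5.98 in controls and 5.99 to 6.08 in knockouts, a difference of 0.09 ± 0.05. Its signal was well under the dim level.

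The receptors of wide spread had larger differences with larger errors. Vmn1r89 differed by 0.24 ± 0.62 (95% interval -1.17 to 1.64, limma adjusted p = 0.971), Vmn1r86 by 0.42 ± 0.43, Vmn1r28 by 0.38 ± 0.65 and Vmn2r1 by 0.33 ± 0.48 (95% interval -0.77 to 1.43). These differences moved with single arrays. Without control 1 they were 0.80 for Vmn1r89, 0.83 for Vmn1r86, 0.98 for Vmn1r28 and 0.75 for Vmn2r1. The lowest values without another array were -0.04 for Vmn1r89 (without knockout 1), 0.21 for Vmn1r86 and 0.07 for Vmn1r28 (both without control 4) and 0.06 for Vmn2r1 (without knockout 4). The largest difference was that of Vmn1r38, 0.62 ± 0.46. Over all members the 95% interval reached 0.372 to either side of the difference in the median and 1.49 at its widest. It lay within 1 of 0 for 137 members, while for 26 it included a doubling and for 4 a fall to 50%, so changes of that size could not be told from no change in these receptors.

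The size of the median difference moved with single arrays, and its direction turned in the fit with Y-linked signal. Without control 1 the median difference was 0.22, and 26 members were higher at an unadjusted p under 0.05 (4.30% of all clusters). Without knockout 3 it was 0.21, with 16 members (3.77% of all clusters). Without knockout 1 it was 0.05, without control 4 it was 0.08, and without control 2, whose immune markers were raised, 0.07 with 0 members. With Y-linked signal in the model the median turned to -0.14, with 27 members higher, and 9 members were lower at an unadjusted p under 0.05 (1.36% of all clusters). The 4 arrays of high Y-linked signal (controls 2 to 4 and knockout 3) held 1 knockout and the 4 of low signal (control 1 and knockouts 1, 2 and 4) held 1 control, so values within them rest on knockout 3 and control 1 alone and are no separate check. The median difference was -0.05 in the former (62 members higher, and 23 of 46 Vmn2r) and -0.14 in the latter (44 higher). No member passed after adjustment in any fit.

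Beside the vomeronasal receptors, the ORs were lower in knockouts for 71.0% of genes, with a median of -0.08, and the 13 Taar genes had a median of 0.12, with 10 higher. The difference between families was not tested. Emx2 itself differed by -0.55 ± 0.08 (limma adjusted p = 0.201) and Omp, in whose locus the Cre gene lies, by -0.27 ± 0.19. Omp was at -0.12 without control 1, -0.17 without control 4 and -0.41 without control 3. No gene of the vomeronasal lists passed: among the transduction genes the smallest p was that of Ano2 (-0.16 ± 0.11), among the factors that of Meis2 (0.11 ± 0.18), among the V2R partners that of H2-M10.2 (-0.14 ± 0.08), among the formyl peptide receptors that of Fpr-rs6 (-0.10 ± 0.10) and among the gland genes that of Lcn3 (-0.97 ± 0.73). Lcn3 was at -0.27 without control 1, at -0.51 without knockout 3 and at -2.27 with Y-linked signal in the model. Of the 18 mature OSN genes measured, 5 were higher and 13 lower, with S100a5 at -0.58 ± 0.12 (adjusted p = 0.459), and of the 8 immature OSN genes 4 were higher and 4 lower, with Gap43 at -0.11 ± 0.05. The immune list had Tyrobp at -0.35 ± 0.23, and at -0.08 without control 2.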

How the data were processed

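The authors measured total RNA of 8 mice (4 knockouts and 4 control littermates by the labels) on GeneChip Mouse Gene ST arrays and deposited a log2 signal for each transcript cluster. Affymetrix Expression Console is named in the submitters' notes on processing, and its version and summarisation algorithm are not given in the sources used here. Values were used as deposited. Arrays give signals and not counts, and the number of arrays limits the precision.

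Of 35557 clusters, 21789 carried exactly 1 gene symbol in the platform annotation and were tested, 1621 carried several and 12147 were unnamed here. Knockouts and controls were compared with lmFit and eBayes of limma 3.58.1 (R 4.3.3), two-sided, with Benjamini-Hochberg adjustment at 0.05, and members were read from this fit. The test was checked on simulated data with independent noise for each cluster, so the check does not cover genes that move together over arrays. Alternatives were the methods' t-test, quantile normalization, scaling to mature OSN genes, array weights, a Y-linked covariate, brighter clusters only, the mean of a gene's clusters and leaving out each array. Other definitions of the dim level were tried, and the pituitary genes, Calr4, Xist and 4 further alternatives were added after the data were seen.

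Named genes were the members above the dim level, the 6 of smallest p in each direction, the 5 of widest spread, the measured family C gene, Emx2, Omp and for each list the gene of smallest p. Vmn1r70, Vmn1r38, Vmn1r208 and the members named for small range, as exceptions or as ends of a gene group were picked after their values were seen. The members and lists were chosen with earlier results of these data known. Replicate numbers follow accession order and pair no mice. RefSeq windows and gene names are from assembly GRCm38.p6.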

Additional observations from a re-analysis of the deposited data

Results flagged for a closer look

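Within each group of 4 arrays, single values were checked with Dixon's criterion at the 95% level for the named genes and the family medians, which made 64 groups, of which 7 were past it. For independent groups not picked by their spread, chance alone puts about 1 group in 20 there. Here 5 of the named genes were picked for wide spread and the receptors moved together, so the count cannot be judged by that rate. In controls, Vmn1r89 was 9.69 on control 1 against 7.22 to 7.57 on the others, Vmn1r27 was 8.05 on control 1 against 5.66 to 6.05, and Vmn1r35 was 5.55 on control 1 against 3.41 to 3.71. The median over Vmn2r was 6.20 on control 1 against 5.49 to 5.55. Vmn1r205 was 4.07 on control 3 against 4.34 to 4.39, well under the dim level. Tyrobp, an adaptor of myeloid cells, was 10.96 on control 2 against 9.81 to 9.93 in the other controls, and 9.69 on knockout 2 against 9.83 to 9.84 in the other knockouts. Among knockouts no named receptor had such a single array.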

How the results depend on the processing

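No paired analysis was possible because the labels tie no mouse to a litter. No member passed after adjustment under any alternative run. At an unadjusted p under 0.05, members higher and lower (2 and 0 as reported) were 0 and 9 with the Y-linked covariate (1.36% of all clusters lower). They were 0 and 0 with the methods' t-test, 0 and 1 after quantile normalization, 5 and 0 with scaling to mature OSN genes and 5 and 1 with array weights. For these fits the share of all clusters is not given, so their counts cannot be set against a background. Leaving out each array gave 0 to 26 higher, the most without control 1 (4.30% of all clusters), and 0 lower. The median over members was 0.05 to 0.22 without each array and 0.32 over the clusters of several symbols. Members above the dim level were 4 at the 90th percentile of the reference genes, 0 at the highest reference gene, 4 at the 25th percentile of all clusters, 0 when all 8 arrays had to pass, 1 after quantile normalization and 1 to 3 without each array. The median SD was 0.223 to 0.290 without each array. Above the median signal of all clusters 0 members were left, so that alternative gave no value. Among named genes the direction turned in 18 values. With the Y-linked covariate these were Vmn1r27 (-0.68), Vmn1r28 (-0.72), Vmn1r33 (-0.51), Vmn1r35 (-0.57), Vmn1r86 (-0.32), Vmn1r89 (-0.82), Vmn2r1 (-0.45) and Meis2 (-0.15). With scaling to mature OSN genes they were Vmn1r172 (0.0125), Vmn1r48 (0.0032) and Vmn2r27 (0.0415), and with array weights Vmn1r48 (0.0221). Without each array Vmn1r89 ran from -0.0355 to 0.80, Meis2 from -0.0243 to 0.26, Vmn1r48 from -0.22 to 0.0152 and Vmn2r54 from -0.27 to 0.0035. The cause of these shifts was not tested.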
